A study of Mus musculus with 8 samples.

Results

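The genes described here are 35 interferon-stimulated genes outside the oligoadenylate synthetase (OAS) family, chosen by gene symbol, and all 35 were found among the 24213 genes measured. Irf1 was the 1 member with more than 1 feature, and its brighter feature over the 8 arrays was used. Signal was measured in cells sorted from mouse bone marrow as hematopoietic stem cells (HSCs), the cells that give rise to all blood lineages. The 4 knockout samples came from C57BL/6 mice of genotype Atg12flox/flox:Mx1-Cre and the 4 control samples from Atg12flox/flox mice of the same strain without Cre. Poly(I:C), a double-stranded RNA polymer that makes cells produce interferon, had been given to every mouse, controls included, when 4 weeks old. The labels describe sorting from single animals 2 to 3 months after that, at a labelled age of 3 to 4 months. Atg12 encodes a ubiquitin-like protein needed to build autophagosomes. Mx1-Cre is a recombinase gene under the promoter of Mx1, itself an interferon-stimulated gene, so it acts in any cell that responds to interferon. As no control carried Cre, effects of the transgene and of Atg12 deletion cannot be told apart. RNA was amplified and hybridised to Affymetrix Gene ST arrays, and each value is a log2 signal.

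Type I interferons bind a shared receptor whose kinases phosphorylate STAT proteins. STAT2 and IRF9 are subunits of the resulting complex, ISGF3, which binds the interferon-stimulated response element (ISRE) in gene promoters, whereas interferon gamma acts mainly at gamma-activated sites (GAS). The induced genes encode RNA sensors, antiviral effectors, GTPases that act at intracellular membranes, and enzymes that modify or remove the ubiquitin-like protein ISG15. In hematopoietic stem cells, interferon is known to alter quiescence, and Sca-1, a marker used in the sort, is itself induced by it.

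All 35 members matched a RefSeq mouse symbol, and 25 had a promoter window in RefSeq sequence of build GRCm38.p6, running from 250 bases before to 50 bases after the gene start. The ISRE core, searched on both strands as GAAA, any 2 bases and GAAA again, stood in the windows of 12 of these 25 genes (48.0%), against 3.99% of 27025 genes with a window. The letters TTCNNNGAA, the GAS core, which read the same on both strands, stood in 7 of the 25 (28.0%), against 9.55% of those genes. The ISRE letters stood 2 times in the windows of Bst2, Gbp3, Ifit1, Ifit3 and Irgm1. They stood 1 time in those of Ddx58, Eif2ak2, Gbp2, Ifih1, Igtp, Rsad2 and Stat2. A match is only a run of letters in this window. The windows of 6 genes are shown because Gbp3, Igtp, Irgm1 and Bst2 varied closely together over the arrays (Pearson's r 0.73 to 0.93 over 8 arrays), Ifit1 varied with Bst2 (0.87) more than with Irgm1 (0.47), and Stat2, with the same letters, had r from -0.68 to 0.12 with the other 5. These pairs were picked after their values were seen. Capitals mark the ISRE and GAS letters. The 2 ISRE copies of Bst2, Gbp3 and Irgm1 overlap, and the GAS letters of Bst2 run into them.
Gbp3 promoter, chr3:142559794-142560093, plus strand: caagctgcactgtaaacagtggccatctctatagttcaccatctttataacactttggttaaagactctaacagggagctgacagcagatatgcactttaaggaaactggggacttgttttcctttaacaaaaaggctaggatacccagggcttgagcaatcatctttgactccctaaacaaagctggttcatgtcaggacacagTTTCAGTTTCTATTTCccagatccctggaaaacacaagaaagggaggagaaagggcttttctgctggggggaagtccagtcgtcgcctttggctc
Igtp promoter, chr11:58199306-58199605, plus strand: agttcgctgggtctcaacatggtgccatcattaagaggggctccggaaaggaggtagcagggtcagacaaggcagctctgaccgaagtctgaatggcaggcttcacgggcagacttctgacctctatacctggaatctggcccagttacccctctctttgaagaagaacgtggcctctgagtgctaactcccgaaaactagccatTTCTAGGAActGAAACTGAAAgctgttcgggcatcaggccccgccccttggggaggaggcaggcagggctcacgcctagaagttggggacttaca
Irgm1 promoter, chr11:48871371-48871670, minus strand: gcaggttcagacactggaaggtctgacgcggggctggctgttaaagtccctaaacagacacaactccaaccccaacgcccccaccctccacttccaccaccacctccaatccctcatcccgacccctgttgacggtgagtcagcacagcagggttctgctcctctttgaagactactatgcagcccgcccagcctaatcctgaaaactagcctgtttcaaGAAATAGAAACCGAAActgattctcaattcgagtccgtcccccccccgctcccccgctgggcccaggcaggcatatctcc
Bst2 promoter, chr8:71537423-71537722, minus strand: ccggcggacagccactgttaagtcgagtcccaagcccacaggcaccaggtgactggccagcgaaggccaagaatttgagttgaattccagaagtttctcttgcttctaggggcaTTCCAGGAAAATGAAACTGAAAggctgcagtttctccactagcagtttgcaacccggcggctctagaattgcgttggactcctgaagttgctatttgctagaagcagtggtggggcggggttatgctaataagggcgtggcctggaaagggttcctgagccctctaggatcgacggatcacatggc
Ifit1 promoter, chr19:34640639-34640938, plus strand: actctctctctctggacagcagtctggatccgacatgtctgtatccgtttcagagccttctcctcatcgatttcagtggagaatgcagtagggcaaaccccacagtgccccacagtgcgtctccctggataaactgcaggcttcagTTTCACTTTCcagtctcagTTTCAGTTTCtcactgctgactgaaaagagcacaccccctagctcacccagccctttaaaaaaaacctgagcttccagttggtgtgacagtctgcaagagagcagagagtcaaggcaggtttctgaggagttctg
Stat2 promoter, chr10:128270248-128270547, plus strand: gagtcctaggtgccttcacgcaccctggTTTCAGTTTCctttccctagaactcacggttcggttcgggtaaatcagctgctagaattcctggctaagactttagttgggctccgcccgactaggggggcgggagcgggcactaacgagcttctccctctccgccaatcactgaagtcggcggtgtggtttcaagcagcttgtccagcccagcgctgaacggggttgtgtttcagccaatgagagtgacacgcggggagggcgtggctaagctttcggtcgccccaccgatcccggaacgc
In Gbp3, Igtp and Irgm1 the ISRE letters began 45, 34 and 30 bases before the gene start, in Bst2 and Ifit1 130 and 104 bases before it, and in Stat2 222 bases before it. In Gbp3, Ifit1, Irgm1 and Bst2 these are the distances of the copy farther from the start. Over all 25 members with a window, the median log2 difference (knockout minus control) was 0.21 for the 12 with ISRE letters and 0.15 for the 13 without them. The 2 sets overlapped, with ranges from -0.15 to 0.54 and from -0.08 to 0.53.

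Atg12 itself read 5.66, 5.45, 5.35 and 5.56 on knockout arrays, against 6.41, 6.37, 6.55 and 6.42 on control arrays, and was the 1 gene of 24213 to pass the test (limma, adjusted p = 0.031). The sex-linked genes differed between arrays, although the labels give no sex. Xist was high on knockouts 1, 2 and 4 and control 4, and Ddx3y, Eif2s3y, Kdm5d and Uty on knockouts 3 and 4 and controls 1, 2 and 3. Knockout 4 thus carried both signals (Xist 8.12, Ddx3y 6.27), which goes against a single animal as its source. Where these 5 genes should be absent, they read at most 3.20, which serves below as the level of absent transcripts. Knockout 3 lay apart on the first principal component, at -39.5, where the other arrays lay between -12.2 and 14.8. Of 14 HSC marker genes, 11 averaged above that level, and Slamf1, which encodes the sort marker CD150, Mecom and Tek did not. Of 11 monocyte and macrophage markers measured, 7 lay above it, among them the monocyte genes Csf1r (7.17 in knockouts, 6.97 in controls) and Ly6c2 (10.42 and 10.39). The stem cell label is therefore not borne out by all of its markers, and HSC below names the samples as sorted.

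The test over all genes called 0 of the 35 members (limma with Benjamini-Hochberg adjustment, adjusted p 0.686 to 0.9996), where 0.00413% of all genes passed. The differences nonetheless lay mostly on the same side. The knockout mean was above the control mean for 32 of the 35 members, as it was for 50.6% of all genes. The median log2 difference was 0.26 over the members and 0.002 over all genes. It was 0.13 with Xist signal as a covariate, 0.09 among arrays with Xist signal only and 0.16 among arrays with Y-linked signal only. At an unadjusted limma p under 0.05, 12 members were higher in knockout, where 2.43% of all genes were, and 0 were lower, where 2.5% of all genes were. All 4 knockout arrays lay above all 4 control arrays for 4 members, Ifi27, Lgals3bp, Usp18 and Bst2, and 1.36% of all genes showed this. The count was 9 without control 4 (2.93% of all genes) and 10 without knockout 3 (2.97%), arrays singled out in part from these same values. For 0 members did all knockout arrays lie below all control arrays, which 1.54% of all genes showed. A log2 difference above 0.5 was reached by 6 members (Rtp4, Ifi27l2a, Igtp, Ifi44, Ifit1 and Ifi27) and by 0.264% of all genes. A difference below -0.5 was reached by 0 members and by 0.463% of all genes. In bulk samples, more cells of a kind that expresses these genes and more RNA per cell cannot be told apart.

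**Figure D1:**
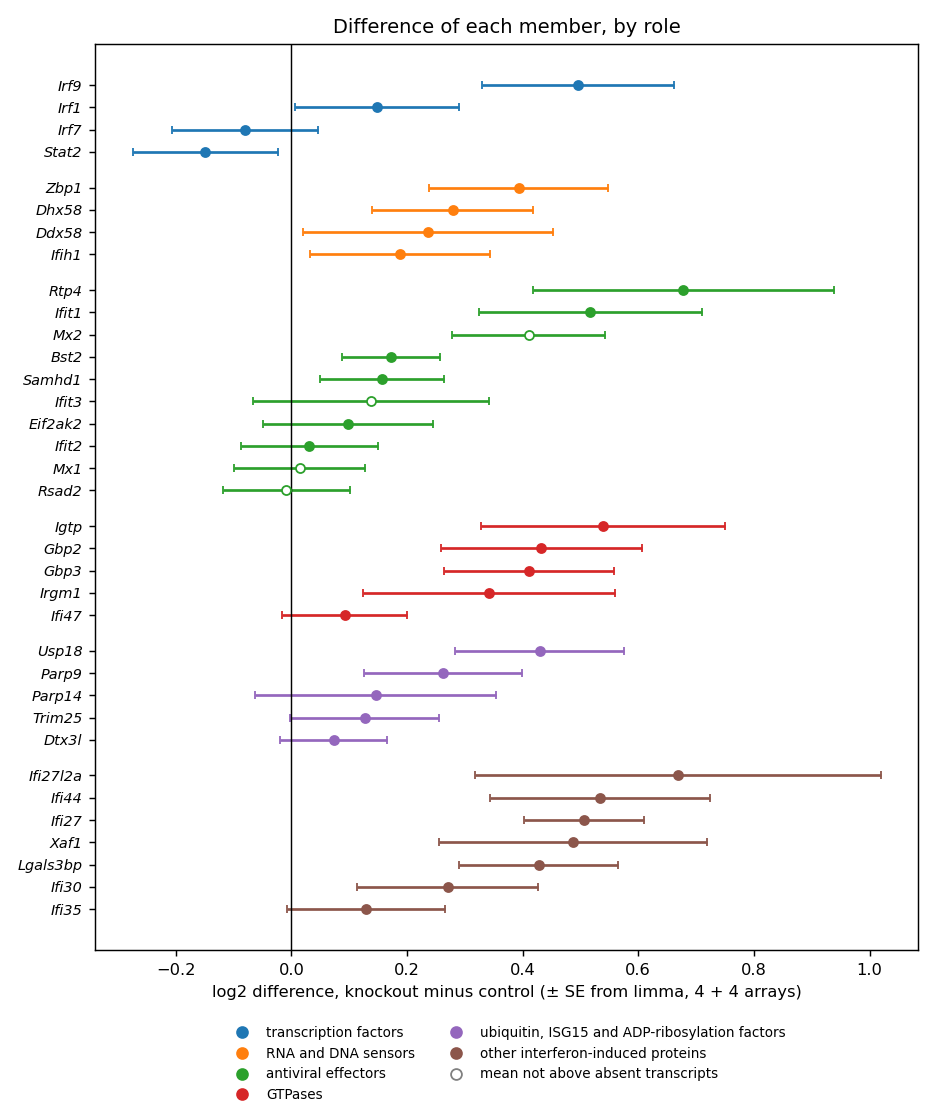
Log2 difference (knockout minus control) of each of the 35 members with its SE from limma, in blocks by role, with open circles for genes whose mean did not exceed the level of absent transcripts. Of the 35 points 32 lie right of 0, and the transcription factor block holds both Irf9 at 0.50 and Stat2 at -0.15.

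The transcription factors did not move alike. Irf9, the DNA-binding subunit of ISGF3, read 5.80, 5.67, 5.26 and 5.95 on knockout arrays, against 4.87, 5.21, 5.11 and 5.50 on control arrays. Knockout 3 lay below control 4, so the groups overlapped at this 1 place. Its log2 difference was 0.50 (SE 0.17; limma adjusted p = 0.991; two-sided exact permutation p = 0.0571).

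Stat2, the partner of Irf9 in ISGF3, read 5.07, 5.30, 4.81 and 5.24 on knockout arrays, against 5.31, 5.39, 5.28 and 5.04 on control arrays. The groups overlapped, and the lowest value was that of knockout 3. Its difference was -0.15 (SE 0.13; adjusted p = 0.9996). Irf7, which amplifies the induction of interferon alpha genes, lay close to the level of absent transcripts, at 3.17, 3.57, 3.54 and 3.55 on knockout arrays, against 3.72, 3.47, 3.30 and 3.64 on control arrays. Its difference was -0.08 (SE 0.13), with knockout 1 as the lowest array.

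Irf1, a factor induced by interferon gamma, carried the GAS letters in its promoter window and read 6.22, 6.42, 5.82 and 6.53 on knockout arrays, against 6.04, 6.17, 6.14 and 6.06 on control arrays. Control arrays stayed within 0.13 of each other, whereas knockout arrays lay on both sides of them. The difference was 0.15 (SE 0.14).

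**Figure D2:**
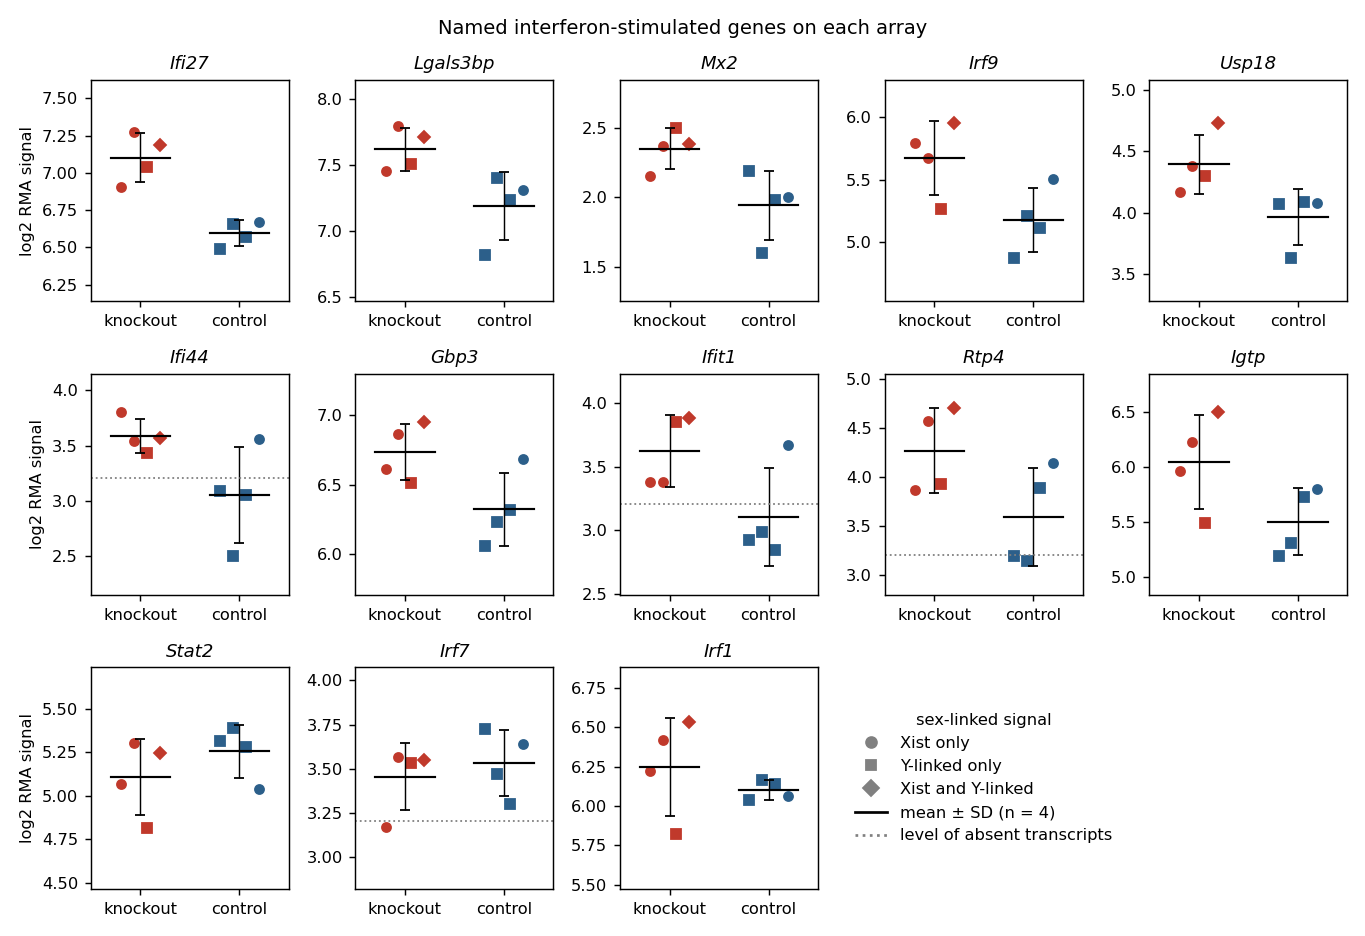
Log2 signal of 13 members on each array, knockout left of control, with mean ± SD (n = 4 each), and marker shape giving the sex-linked signal of the array. Ifi27, Lgals3bp and Usp18 have no overlap between groups, and for Irf9, Ifi44, Gbp3, Ifit1, Rtp4 and Igtp the Xist-only control 4 is the highest control.

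Among sensors of foreign nucleic acid, all 4 members had a difference above 0, between 0.19 and 0.39, and none had groups that did not overlap. Zbp1, a sensor of Z-form nucleic acid, read 4.51, 4.89, 4.89 and 4.66 on knockout arrays, against 4.14, 4.38, 4.09 and 4.76 on control arrays. Control 4 alone lay within the knockout range. The difference was 0.39 (SE 0.16; limma adjusted p = 0.994). Ddx58, which encodes RIG-I, differed by 0.24 (SE 0.22), and its control arrays spread from 3.99 to 5.01. Ifih1, which encodes MDA5, a sensor of long double-stranded RNA such as poly(I:C), differed by 0.19 (SE 0.16), and Dhx58, which encodes their regulator LGP2, by 0.28 (SE 0.14).

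The antiviral effectors held the 4 genes whose mean lay under the level of absent transcripts, and Rtp4, whose measured difference was the highest of the 35. Rtp4, an interferon-induced transmembrane protein, read 3.86, 4.57, 3.93 and 4.70 on knockout arrays, against 3.19, 3.14, 3.88 and 4.14 on control arrays. Controls 1 and 2 lay under the level of absent transcripts, and controls 3 and 4 lay within the knockout range. The difference was 0.68 (SE 0.26; limma adjusted p = 0.991), which rests in part on controls 1 and 2, both just under that level.

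Ifit1, which binds foreign RNA by its 5′ end, read 3.38, 3.38, 3.85 and 3.88 on knockout arrays, against 2.92, 2.99, 2.84 and 3.67 on control arrays. Control 4 was the 1 control above the level of absent transcripts, as all 4 knockouts were. The difference was 0.52 (SE 0.19; limma adjusted p = 0.991). Its relative Ifit2, in contrast, differed by 0.03 (SE 0.12), with means of 5.32 ± 0.14 on knockout arrays and 5.29 ± 0.20 on control arrays (SD, n = 4 each).

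Bst2, which encodes tetherin, a protein that holds budding virus at the cell surface, had a small difference and the smallest SE of the 35 members. It read 7.90, 7.88, 7.87 and 7.99 on knockout arrays, against 7.70, 7.72, 7.70 and 7.83 on control arrays. The groups did not overlap, although knockout 3 and control 4 lay 0.036 apart. The difference was 0.17 (SE 0.08; limma adjusted p = 0.9996; two-sided exact permutation p = 0.0286). With 4 arrays a group no smaller permutation p is possible, and these p-values were not adjusted over the 35 members.

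Samhd1, a dNTP hydrolase that restricts viruses, differed by 0.16 (SE 0.11) and Eif2ak2, the kinase PKR that halts translation on double-stranded RNA, by 0.10 (SE 0.15). Ifit3, Mx1, Mx2 and Rsad2, which encodes viperin, averaged under the level of absent transcripts. Mx2 was among the members of smallest p (difference 0.41, SE 0.13; limma adjusted p = 0.991), yet read 2.15, 2.37, 2.50 and 2.39 on knockout arrays, against 2.19, 1.60, 1.98 and 2.00 on control arrays, all below that level. Mx1, whose promoter drives the Cre transgene and whose own protein is disabled in C57BL/6 mice by a deletion, read 2.43 to 2.82 on knockout arrays and 2.46 to 2.78 on control arrays.

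All 5 interferon-inducible GTPases had a difference above 0, with a median of 0.41. Igtp, an immunity-related GTPase of intracellular membranes, read 5.96, 6.22, 5.49 and 6.49 on knockout arrays, against 5.19, 5.31, 5.72 and 5.80 on control arrays. Knockout 3 lay below controls 3 and 4, and the other knockouts lay above every control. The difference was 0.54 (SE 0.21; limma adjusted p = 0.991).

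Gbp3, a guanylate-binding protein, read 6.61, 6.86, 6.52 and 6.95 on knockout arrays, against 6.06, 6.23, 6.32 and 6.68 on control arrays. Control 4 lay above knockouts 1 and 3, and no other control did. The difference was 0.41 (SE 0.15; limma adjusted p = 0.991), and that of its relative Gbp2 was 0.43 (SE 0.17). Probes of such relatives can bind each other's transcripts. Irgm1, a GTPase that has been linked to autophagy, differed by 0.34 (SE 0.22) and Ifi47 by 0.09 (SE 0.11).

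Of the genes that act on ISG15, ubiquitin or ADP-ribose, Usp18 had groups without overlap. Usp18, the protease that removes ISG15 and dampens signalling at the interferon receptor, read 4.17, 4.38, 4.29 and 4.73 on knockout arrays, against 4.07, 3.63, 4.09 and 4.08 on control arrays. Control 2 was the lowest array, and knockout 1 lay 0.083 above the highest control. The difference was 0.43 (SE 0.15; limma adjusted p = 0.991; two-sided exact permutation p = 0.0286). The other 4 genes had smaller differences, 0.26 for Parp9, 0.15 for the ADP-ribosyltransferase gene Parp14, 0.13 for Trim25, a ubiquitin ligase of the RIG-I pathway, and 0.07 for Dtx3l, the ubiquitin ligase that pairs with Parp9.

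The remaining interferon-induced genes had the highest median of the role groups, 0.49 over 7 genes, and all 7 differed above 0. Ifi27, a small hydrophobic protein, had the smallest p of the 35 members. It read 6.91, 7.27, 7.04 and 7.19 on knockout arrays, against 6.49, 6.66, 6.57 and 6.67 on control arrays. Every knockout lay above every control, by at least 0.235. The difference was 0.51 (SE 0.10; limma adjusted p = 0.686; two-sided exact permutation p = 0.0286), or 1.42-fold.

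Lgals3bp, a secreted glycoprotein that binds galectin-3, read 7.45, 7.79, 7.51 and 7.71 on knockout arrays, against 6.82, 7.40, 7.23 and 7.31 on control arrays. The groups did not overlap, and control 1 lay furthest from the knockouts. The difference was 0.43 (SE 0.14; limma adjusted p = 0.991; two-sided exact permutation p = 0.0286).

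Ifi44, a cytoplasmic interferon-induced protein, read 3.80, 3.54, 3.44 and 3.57 on knockout arrays, against 3.09, 2.50, 3.06 and 3.56 on control arrays. Control 4 was the 1 control above the level of absent transcripts and lay above knockouts 2 and 3. The difference was 0.53 (SE 0.19; limma adjusted p = 0.991).

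Ifi27l2a, a relative of Ifi27, had a difference of 0.67 with a wide error (SE 0.35), since knockout arrays spread from 5.22 to 6.80 and control arrays from 4.73 to 6.07. Xaf1, which binds the apoptosis inhibitor XIAP, differed by 0.49 (SE 0.23), Ifi30, a thiol reductase of lysosomes, by 0.27 (SE 0.16) and Ifi35 by 0.13 (SE 0.14). Ifi30 took another course from most members, with its highest value, 6.81, on knockout 3 and its lowest, 5.99, on knockout 2. Dhx58 and Mx2 were also highest on knockout 3.

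Arrays within a group also differed in the level of the members as a set. Measured from each gene's own mean over 8 arrays, the members averaged 0.08, 0.24, -0.03 and 0.25 on knockouts 1 to 4, against -0.26, -0.15, -0.19 and 0.06 on controls 1 to 4. Control 4 thus lay above knockout 3. Control 4 was the highest control for 19 of 35 members, as for 24.8% of all genes, and knockout 3 the lowest knockout for 19, as for 29.3% of all genes.

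**Figure D3:**
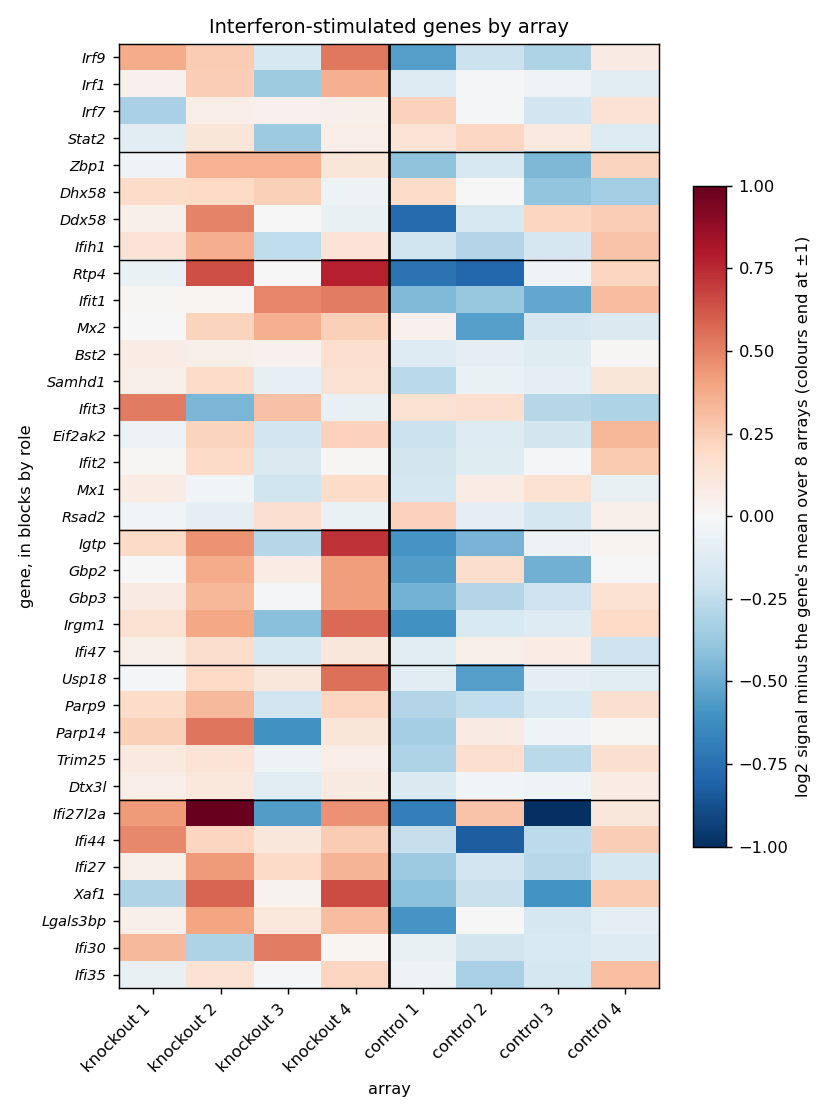
Log2 signal of each member minus its mean over the 8 arrays, knockout arrays left of control arrays, in blocks by role. Controls 1, 2 and 3 are mostly blue and knockouts 2 and 4 mostly red, whereas control 4 is above the gene's mean for 23 members and knockout 3 for 15.

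**Figure D4:**
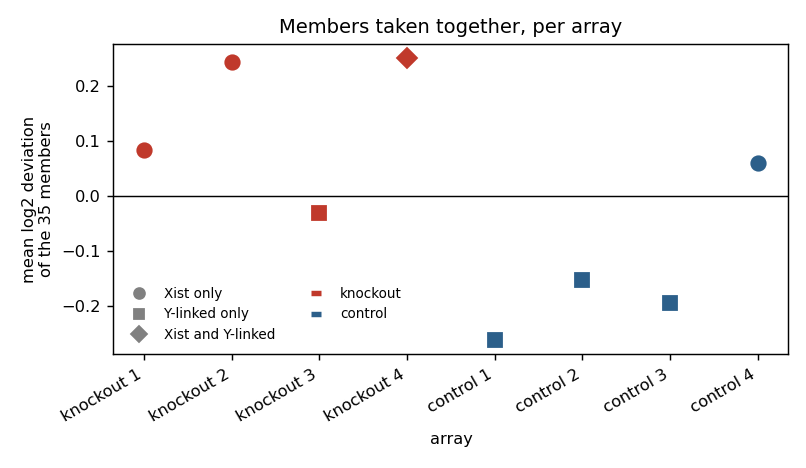
Mean deviation of the 35 members on each array from each gene's own mean (log2), knockout left of control, with marker shape giving the sex-linked signal. Control 4, the Xist-only control at 0.06, lies above knockout 3, the Y-linked-only knockout at -0.03.

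These 2 arrays also stood apart in sex-linked signal, control 4 as the only control with Xist and knockout 3 as the only knockout without it. The mean of the 3 Xist-only arrays was above that of the 4 arrays with Y-linked signal only for 30 of 35 members, as for 46% of all genes. Of the Xist-only arrays 2 were knockouts, and of the Y-linked-only arrays 1 was, so this count also holds the difference between genotypes. Among Xist-only arrays (2 knockouts, 1 control) the difference between genotypes was above 0 for 25 members, as for 48.2% of all genes, with a median of 0.09. Among Y-linked-only arrays (1 knockout, 3 controls) it was above 0 for 24 members, as for 53.2% of all genes, with a median of 0.16. It was above 0 in both for 17 members. A share over all genes was not taken for this count, so it is not read as agreement between the classes. With Xist signal as a covariate, 26 members had a difference above 0, as had 52.8% of all genes, and the median was 0.13. The only control of the Xist-only class, control 4, was the control highest in the members as a set. The only knockout of the Y-linked-only class, knockout 3, was the lowest knockout and lay apart on the first principal component. Knockout 4, the highest array at 0.25, was in neither class. The median over members was smaller within each class and with the covariate than over all arrays. For the classes this follows in part from which arrays they hold.

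Single members differed in their values within the classes. Ifi27 differed by 0.42 among Xist-only arrays and by 0.47 among Y-linked-only arrays, and Lgals3bp by 0.32 and 0.36, against 0.51 and 0.43 over all arrays. Usp18 differed by 0.20 and 0.37, against 0.43 over all arrays, and Irf9 by 0.23 and 0.19, against 0.50. Ifit1 differed by -0.29 among Xist-only arrays and 0.93 among Y-linked-only arrays, and Irf1 by 0.26 and -0.29. Each class rests on 1 control or 1 knockout, so these values carry no replicate error of their own. In the first class the groups did not overlap, knockout above control, for 16 members (30.5% of all genes), and in the second for 16 (33% of all genes).

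Without control 4, 32 members had a difference above 0 (50.3% of all genes), and the groups did not overlap for 9 (2.93% of all genes). Without knockout 3, 32 members had a difference above 0 (48.7% of all genes), and the groups did not overlap for 10 (2.97% of all genes). Control 4 and knockout 3 were singled out in part from these same member values, so a rise in the count without either follows in part from that choice. Without any other single array the count was 4 or 5.

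The members co-varied over the 8 arrays. Over 595 pairs, Pearson's r averaged 0.36, with a median of 0.49 and a range from -0.87 to 0.97, where the mean over all pairs of all genes was 0.003. Of the pairs, 452 had r above 0 and 78 had r above 0.8. With each group's mean subtracted, so that the difference between genotypes does not enter, the mean over pairs was 0.25. All pairs share the same 8 arrays and their normalization, so these values describe the arrays.

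**Figure D5:**
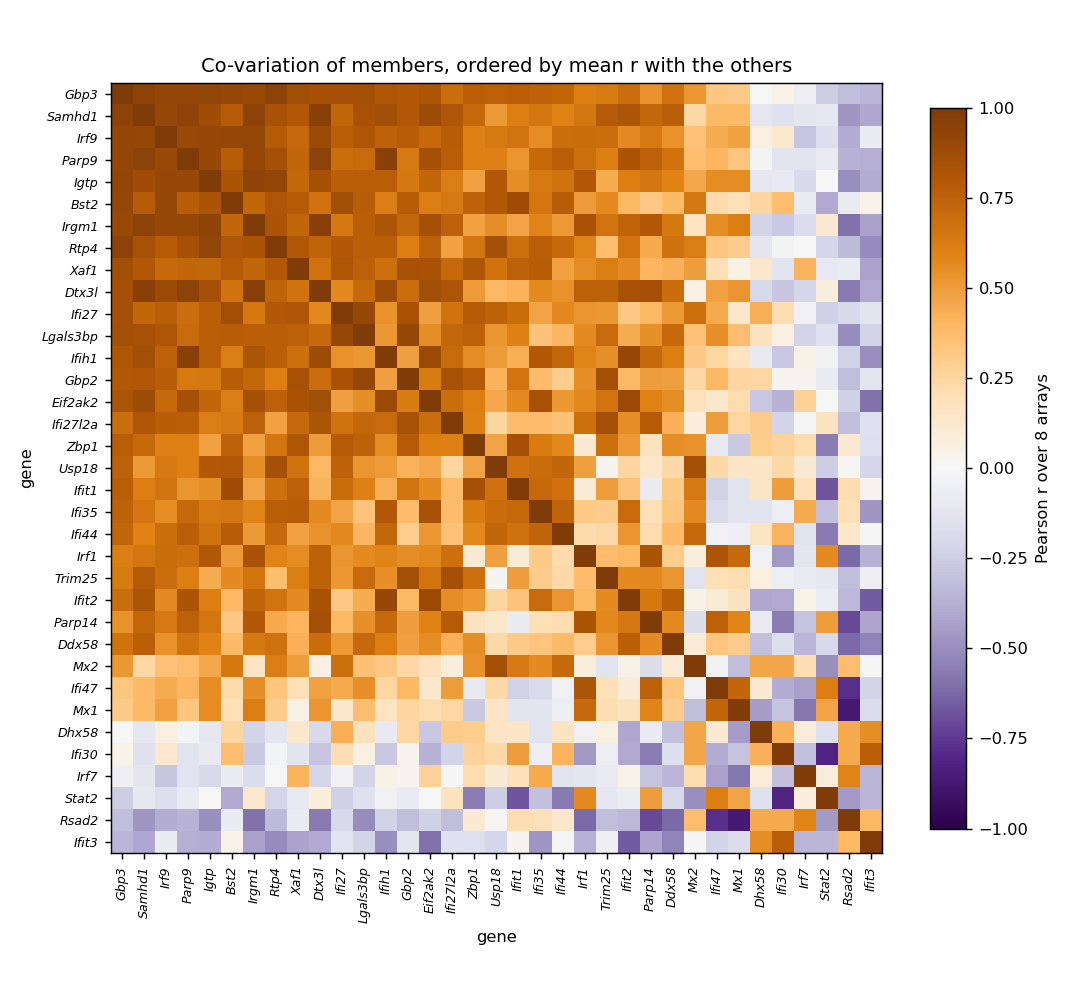
Pearson's r over 8 arrays for every pair of the 35 members, ordered by the mean r of each gene with the others. A block of positive r holds most genes from Gbp3 (mean 0.59) downward, and Stat2 (-0.12), Rsad2 (-0.21) and Ifit3 (-0.21) stand at the other end.

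Gbp3, Samhd1, Irf9, Parp9, Igtp and Bst2 had the highest mean r with the other members, from 0.59 for Gbp3 to 0.55 for Bst2. Irf7, Stat2, Rsad2, Ifi30 and Ifit3 had a mean r below 0. Of the 2 ISGF3 subunits in the set, Irf9 had r of 0.92 with Gbp3, 0.91 with Irgm1 and 0.91 with Igtp, where Stat2 had -0.25, 0.12 and -0.002. With the GTPase gene Ifi47 the order was the other way, 0.44 for Irf9 and 0.62 for Stat2. With group means subtracted, the mean r of Stat2 with the other members was 0.093 and that of Irf9 0.43. The pairs given next were chosen after their values were seen. Irgm1 and Dtx3l had the highest r, 0.97 (exact permutation p = 0.000223, adjusted over 595 pairs 0.0443), with Spearman's rho 0.95 (exact permutation p = 0.00114, adjusted 0.097). Without the 2 arrays farthest from the median of Irgm1, r was 0.99. Irf9 and Gbp3 had r 0.92 (exact permutation p = 0.00186, adjusted 0.0791) and rho 0.90 (exact permutation p = 0.00456, adjusted 0.123), and r 0.80 without the 2 farthest arrays. Irf9 and Stat2 had r -0.16 (exact permutation p = 0.717, adjusted 0.841) and rho -0.43 (exact permutation p = 0.299, adjusted 0.509), and r -0.13 without the 2 farthest arrays. With group means subtracted, r was 0.96 for Irgm1 and Dtx3l, 0.84 for Irf9 and Gbp3 and 0.22 for Irf9 and Stat2.

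Other genes of the interferon pathway were described from 5 lists. Of all these genes 0 passed the limma test over all genes. At an unadjusted limma p under 0.05, the counts higher and lower in knockout were 0 and 1 for interferons and receptors, 1 and 0 for JAK-STAT and feedback, 4 and 0 for the OAS family, 5 and 4 for antigen presentation, and 8 and 1 for other induced genes. Over all genes, 2.43% were higher and 2.5% lower at that p, and 50.6% differed above 0. Of 13 genes for interferons and their receptors, 8 averaged above the absent level and 8 differed above 0, with a median of 0.05. Ifng, at -0.30, was below the level of absent transcripts on all 8 arrays, and Ifna2 differed by -0.30 (SE 0.19). Of 17 genes for JAK kinases, STAT proteins, other IRF factors and inhibitors, 6 differed above 0, with a median of -0.03. Irf8, a factor of monocyte fate, averaged 8.32 ± 0.23 on knockout arrays and 7.98 ± 0.08 on control arrays (SD, n = 4 each), without overlap.

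Of 13 genes of the OAS family and RNase L, 7 averaged above the absent level and 10 differed above 0, with a median of 0.13. All knockouts lay above all controls for 3 of them (1.36% of all genes), and below for 0 (1.54%). Oas1a differed by 1.11 (SE 0.17) and its close paralog Oas1g by 1.07 (SE 0.20), each more than any of the 35 members. Of 25 measured genes of antigen presentation by MHC proteins, 19 differed above 0, with a median of 0.13. For 3 of these 25 genes all knockouts lay above all controls, and for 0 below, against the same shares of all genes. The class II genes Cd74 (-1.74, SE 0.46) and H2-Ab1 (-0.84, SE 0.22), which mark antigen-presenting cells, lay on the other side of 0, and each had overlapping groups.

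Of 52 measured genes on a list of other interferon-induced genes, 35 differed above 0 (50.6% of all genes), with a median of 0.08. The groups did not overlap, knockout above control, for 4 of them, as for 1.36% of all genes. Ifitm3, which blocks viral entry, read 10.55, 10.56, 10.73 and 10.76 on knockout arrays, against 10.09, 9.99, 9.90 and 10.41 on control arrays, a difference of 0.56 (SE 0.12; limma adjusted p = 0.771). Slfn2, a Schlafen family gene, read 5.98, 5.88, 6.02 and 5.98 on knockout arrays, against 5.10, 4.66, 5.27 and 5.69 on control arrays, a difference of 0.79 (SE 0.18; limma adjusted p = 0.809). For both genes control 4 was the control nearest to the knockouts. Ly6a, the gene of the sort marker Sca-1, differed by 0.65 (SE 0.20; limma adjusted p = 0.991), with 1 place of overlap between knockout 1 at 4.24 and control 3 at 4.39.

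The sort kept cells without lineage markers, and plasmacytoid dendritic cells and macrophages, which express many interferon-stimulated genes, were looked for by their markers. The mean of 8 dendritic cell markers ranged from 3.76 to 3.82 on knockout arrays and from 3.68 to 3.91 on control arrays. Among these, Siglech, Ccr9, Itgax, Xcr1 and Clec9a had means at or under the level of absent transcripts. Pld4 (6.14 in knockouts, 5.79 in controls), Tcf4 (6.22 and 6.32) and Flt3 (5.32 and 5.39) lay above it. The mean of 11 monocyte and macrophage markers ranged from 5.45 to 5.58 on knockout arrays and from 5.33 to 5.63 on control arrays, with C1qa, C1qb, C1qc and Marco at or under that level. Among these 11, Ccr2 differed by 0.37 (SE 0.12; limma adjusted p = 0.991) and Emr1 by -0.34 (SE 0.20). The mean of 5 megakaryocyte markers ranged from 3.46 to 3.96 on knockout arrays and from 4.02 to 4.44 on control arrays. These means thus separated by genotype, with knockouts lower. Each single marker had overlapping groups, and the differences ran from -1.40 for Pf4 to -0.06 for Gp9. Ppbp lay under the level of absent transcripts. For neutrophil markers the ranges were 5.42 to 6.13 on knockout arrays and 5.57 to 6.55 on control arrays, and for T and NK cell markers 3.52 to 3.70 and 3.48 to 3.71. Of 7 neutrophil markers 2 differed above 0 and 5 below, and Lcn2 (0.66, SE 0.17) had all knockouts above all controls (1.36% of all genes). Of 8 T and NK cell markers 4 differed above 0 and 4 below, and Nkg7 (-0.17, SE 0.08) had all knockouts below all controls (1.54% of all genes). The part of any of these cells in the differences of the interferon-stimulated genes was not tested.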

How the data were processed

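The deposited values were log2 signals, 1 per transcript cluster and array, and the scale was inferred from their range. The submitters' processing notes name RMA and limma, with no version. Array annotation and genome build are not given in the sources used here. RMA is meant to make the arrays' signal distributions alike, and a shift common to most genes would then go unseen. Array medians over the genes still differed, from 3.78 to 3.94, with knockout 3 highest. The deposited table with gene names and that of series values held the same 28853 features (largest difference 0). Features without a gene symbol (1494) were left out, which gave 24213 genes. Knockout minus control was fitted in R 4.3.3 with limma 3.58.1 (lmFit, eBayes), without filter or covariates, with Benjamini-Hochberg adjustment over all genes and a threshold of 0.05. Single genes also had a two-sided exact permutation test over 70 assignments. The fit was tested on simulated data. The members, lists and tests were chosen with earlier results of these data known. Members given by array were the 10 of smallest p, those above the level of absent transcripts that lay most below 0, and Irf1, Irf7, Irf9 and Stat2; of each pathway list, the 2 genes of smallest p; 1 further pathway gene and 2 marker lists are not reported here. Bst2, Zbp1, Ly6a and marker genes were added after their values were seen. Precision is limited by the number of arrays, 4 per group. Alternatives comprised a replicate block, omission of each array, sex-linked signal, other scaling, features, filters and moderation. Same-numbered arrays were treated as unpaired. The correlation of their deviations from group means over all genes lay between -0.10 and 0.12, which does not exclude a link between them. With a replicate block the SE fell for most named members (Ifit1 from 0.19 to 0.14). It rose for Irf7 (from 0.13 to 0.14), Mx2 and Stat2.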

Additional observations from a re-analysis of the deposited data

Results flagged for a closer look

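Of 70 groups of 4 arrays (35 members in knockout and in control), 3 held an array far from the other 3, and chance gives about 1 in 20. Irf7 on knockout 1 read 3.17, below the other knockouts. Eif2ak2 on control 4 read 6.50, above the other controls. Usp18 on control 2 read 3.63, below the other controls. A second feature of Irf1, not used above because its mean was lower, averaged 5.08 on knockout arrays and 4.69 on control arrays. It read 4.98, 4.91, 5.34 and 5.10 on knockouts 1 to 4, against 4.75, 4.55, 4.79 and 4.66 on controls 1 to 4, without overlap (two-sided exact permutation p = 0.0286). It was highest on knockout 3, where the feature described above was lowest, so the 2 features of this gene disagree.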

How the results depend on the processing

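The count of members past the adjusted threshold was 0 in each direction under all alternatives run. The count with a difference above 0 lay between 24 and 32, and the median difference between 0.09 and 0.31. With the replicate block the median was 0.26 and the counts 32 and 4. These could not move, because each block held 1 array of each group and the block enters only the SE and p. The count of members without overlap, knockout above control, was 4 to 10 when 1 array was left out, with 9 without control 4 and 10 without knockout 3. With arrays centred on their median this count was 3, and with quantile normalization repeated it was 5. It was 16 among Xist-only arrays and 16 among Y-linked-only arrays, where fewer arrays make separation easier (30.5% and 33% of all genes). The mean r over pairs was 0.25 with group means subtracted, 0.46 over members above the level of absent transcripts (which Ifit1 and Ifi44 passed through the knockout arrays), and 0.33 to 0.41 when 1 array was left out. Of 272 differences of 13 named members, 5 changed sign. Many of the 272 could not change. The replicate block, the second deposited table, separate features, the filter on absent transcripts and other variance moderation leave each difference as it is. Averaging the features of a gene could move only Irf1. Irf7 was between -0.16 and 0.015 when 1 array was left out, above 0 without knockout 1, and at 0.036 among Y-linked-only arrays, where Irf1 was at -0.29. Ifit1 was at -0.29 and Stat2 at 0.14 among Xist-only arrays. The cause was not tested.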
